A study of Mus musculus with 32 samples.

Results

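The uterus of pregnant FVB/N mice, an inbred strain, was compared between E10.5, in mid-pregnancy, and E17.5, shortly before labour, with 5 mice at each time point. These 10 mice are part of a series of 32 arrays, 1 mouse per array, that also covers non-pregnant mice and E6.5, E8.5, E12.5 and E15.5, where E counts embryonic days from the morning of the vaginal plug at E0.5. The labels name no mutation and no treatment for these mice and do not give their age. The tissue was the wall of the uterus at the implantation sites after embryo and placenta had been removed and the decidua, the lining transformed by pregnancy, had been scraped away with a blade, so that each sample is a mixture of muscle, stroma, epithelium, vessels and immune cells. Each mouse gave 1 sample at 1 time point, so the days are compared between animals. All 13439 genes with a kept probe and a symbol were tested, of which 12040 were detected on at least 1 of the 10 arrays.

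During pregnancy the muscle wall first grows mainly by cell division and later by enlargement of its cells, and it is kept quiescent until labour while progesterone acts. Uterine natural killer cells gather in the decidua and its muscle-side border in the first part of pregnancy and become fewer later. The epithelium of lumen and glands secretes proteins and fluid and is regulated by oestrogen and progesterone.

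Values are log2 intensities of Illumina bead arrays, background corrected and quantile normalised by the authors, so a step of 1 is a doubling. Where 5 values are listed for a time point they follow replicates 1 to 5. Differences are E17.5 minus E10.5 ± the standard error from limma's linear model over all 32 arrays, and a gene is called where the adjusted p (Benjamini-Hochberg over all 13439 genes, 2-sided) is at most 0.05. A gene counts as detected on an array where the detection p against negative control beads is at most 0.05. If it was detected on 0 arrays of a time point, only a lower bound of the fold change is given, written "at least", which sets the mean of the brighter group against the lowest signal that counts as detected on the arrays of the other. Levels are compared only between mice and not between genes, since each probe has its own brightness.

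The E10.5 and E17.5 arrays were alike in the number of detected probes, with 13399 to 14351 probes at E10.5 and 13425 to 14275 at E17.5. All 24 measured genes of smooth muscle contraction were detected on at least 1 of the 10 arrays. So were 12040 of all 13439 genes, so this detection says little about the tissue. In 3 libraries markers of tissue that the dissection should have removed stood well above most other mice of the day. The mean of 31 placenta and trophoblast genes was 7.67 in E10.5 replicate 4 and 5.74 in E17.5 replicate 2, against 4.63 to 4.70 and 4.65 to 4.76 in the other mice of each day. The mean of 21 yolk sac and fetal liver genes was 10.36 in E17.5 replicate 2 and 8.30 in replicate 5, against 6.52 to 6.87 in the other E17.5 mice and 5.58 to 5.96 at E10.5. At E12.5 and E15.5 the yolk sac mean was 5.60 to 6.03, so every E17.5 mouse stood above every mouse of E10.5, E12.5 and E15.5. Counts without these 3 libraries are given where they differ much. They still include E17.5 mice with raised yolk sac genes. In these whole-tissue samples fewer cells of a type and less RNA per cell cannot be told apart.

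Between E10.5 and E17.5 2464 of 13439 genes were called, 18.3 percent, of which 1207 (8.98 percent) were higher and 1257 (9.35 percent) lower at E17.5. The 5 values of each time point did not overlap for 928 genes that were higher (6.91 percent) and 982 that were lower (7.31 percent), 14.2 percent in all. Large differences leaned towards increases, with 454 increases against 351 decreases of over 1 log2, 106 against 63 of over 2 log2 and 30 against 11 of over 3 log2. Some genes crossed the limit of detection, as 122 of the genes called higher were detected on no E10.5 array and 82 of those called lower on no E17.5 array. The median difference over all genes was -0.01. Without the 3 libraries 1707 of the calls remained with the same sign. In the gene lists below, 15 of 29 counts of 1 or 2 called members changed by over 1.5 times without 1 of the 10 mice or without the 3 libraries.

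**Figure D1:**
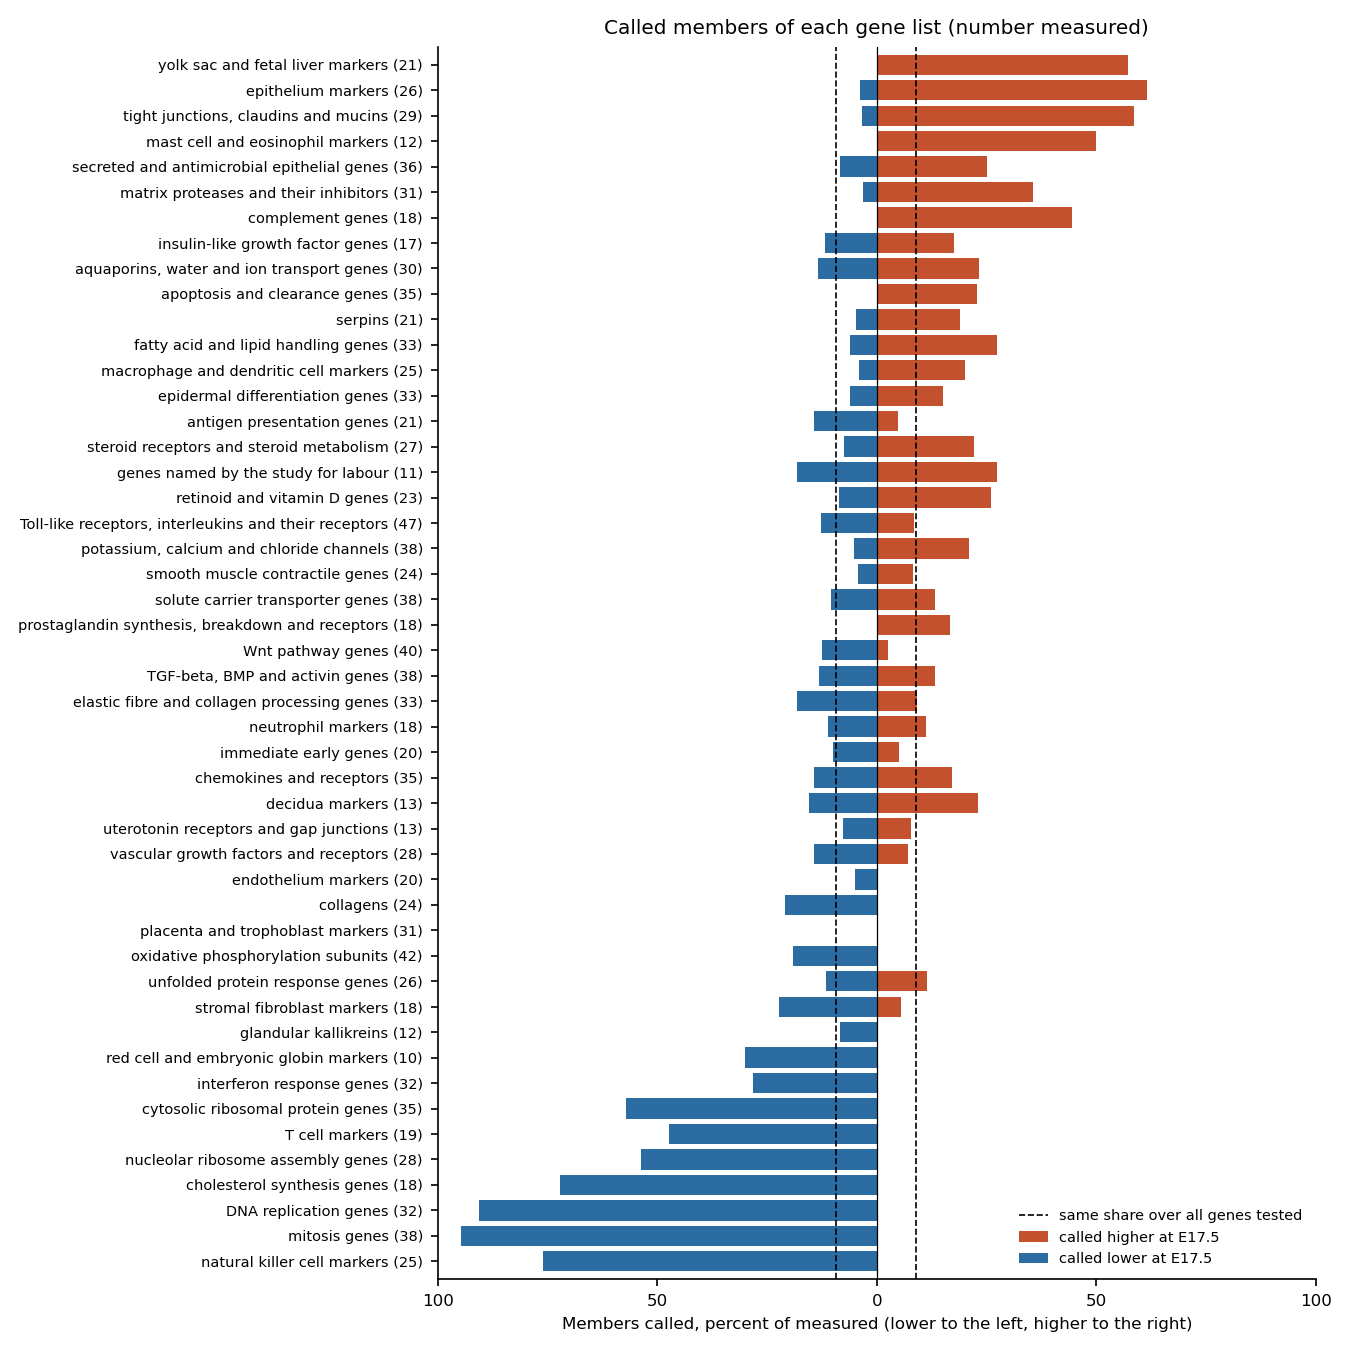
Share of the measured members of each gene list that was called lower (bars to the left) or higher (bars to the right) at E17.5 than at E10.5, in percent, with the number measured in parentheses and dashed lines at the shares of all genes tested (9.35 and 8.98 percent). Mitosis, DNA replication, cholesterol synthesis, ribosome and natural killer cell genes extend to the left and epithelial, tight junction, mast cell and yolk sac genes to the right. Lists with under 10 measured members are not drawn.

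Among the 15 largest increases were genes of secreted proteins, some of which the arrays barely detected at E10.5. Kap, which encodes kidney androgen-regulated protein, was at the floor of the array in all E10.5 mice, with 4.49, 4.74, 4.74, 4.46 and 4.63, and reached 13.75, 12.79, 13.67, 13.18 and 13.28 at E17.5. No E10.5 array detected it and all E17.5 arrays did, a rise of at least 316-fold (adjusted p = 1.20e-21). Cuzd1, the gene of a protein with CUB and zona pellucida-like domains, moved from 9.02, 10.43, 9.58, 9.18 and 8.85 to 14.32, 14.36, 14.29, 14.11 and 14.14. The lowest E17.5 mouse thus stood far above the highest E10.5 mouse, and the difference was 4.83 ± 0.35 (28.5-fold, adjusted p = 3.82e-11). Cxcl17, a chemokine of mucosal surfaces, gave 5.01, 5.68, 5.83, 4.66 and 5.79 at E10.5 and 10.72, 9.64, 11.40, 11.07 and 10.55 at E17.5, an increase of 5.28 ± 0.64 (39.0-fold, adjusted p = 5.39e-07). It was detected in 3 of 5 E10.5 mice and in all 5 E17.5 mice.

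Wfdc18, which encodes a secreted protein of the whey acidic protein family, stood at 4.53 to 5.50 at E10.5, where 1 array detected it, and at 7.91 to 9.85 at E17.5 (4.14 ± 0.43, adjusted p = 3.51e-08). Proc, the gene of the anticoagulant protein C, was detected on no E10.5 array and gave 8.66, 10.41, 8.74, 8.04 and 8.85 at E17.5, at least 15.0-fold more (adjusted p = 2.73e-12). Cd24a, which encodes a small surface glycoprotein of epithelial and immune cells, rose from 6.13, 6.39, 6.60, 5.86 and 6.30 to 10.00, 9.77, 10.36, 10.05 and 10.22. Its groups lay over 3 log2 apart and the spread within each day was small (3.82 ± 0.32, adjusted p = 6.53e-10). Ltf, the gene of the iron-binding antimicrobial protein lactoferrin, stood at 10.05 to 10.94 at E10.5 and at 12.66 to 14.48 at E17.5, a rise with a wide error (3.56 ± 0.97, adjusted p = 0.0086). Il24, a cytokine of the IL-10 family chosen after its values were seen, was at 5.33, 5.29, 5.29, 5.20 and 5.04 at E10.5 and at 8.08, 8.65, 9.07, 8.97 and 8.61 at E17.5 (3.45 ± 0.18, adjusted p = 2.90e-14).

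The 15 largest decreases included a gland protease, 2 transporters and several genes of killer lymphocytes, which are described with their list. Prss29, which encodes an implantation serine proteinase of the uterine glands, gave 9.03, 8.21, 10.36, 9.83 and 10.37 at E10.5 and 4.62, 4.51, 4.86, 5.84 and 4.61 at E17.5, where only replicate 4 was detected. It fell by 4.67 ± 0.70 (25.5-fold, adjusted p = 1.28e-05). Krtdap, the gene of keratinocyte differentiation-associated protein, stood at 10.38, 10.66, 9.96, 10.78 and 9.80 and then at 6.30, 7.73, 4.92, 5.91 and 4.83. All E17.5 mice lay below all E10.5 mice, with replicate 2 highest among them (-4.38 ± 0.45, adjusted p = 3.41e-08). Nccrp1, whose product contains an F-box-associated domain, stood at 8.77 to 11.12 at E10.5 and at 4.92 to 6.92 at E17.5 and fell by 3.69 ± 0.58 (adjusted p = 2.20e-05). Tmsb15a, which encodes a thymosin that binds actin monomers, went from 10.70, 10.67, 9.59, 9.30 and 9.73 to 7.10, 8.21, 5.50, 5.95 and 5.69, with E17.5 replicate 2 again the highest of its day (-3.51 ± 0.51, adjusted p = 9.30e-06).

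Slc6a12, the gene of a transporter for betaine and GABA, fell by 3.49 ± 0.63 (adjusted p = 1.40e-04), and its E10.5 values of 11.55, 11.65, 10.58, 13.73 and 11.07 included the highest value in replicate 4. Fgfbp1, which encodes a carrier that releases fibroblast growth factors from the matrix, stood at 7.23 to 8.29 at E10.5 and at 4.42 to 6.16 at E17.5, where only replicate 2 was detected (-2.87 ± 0.35, adjusted p = 5.83e-07). Slc6a2, the gene of the noradrenaline transporter, fell by 2.83 ± 0.53 (adjusted p = 2.25e-04). Aoc1, the gene of the histamine-degrading diamine oxidase, was also planned as a decidua marker. It moved from 11.83, 12.11, 12.42, 13.19 and 11.96 to 9.03, 8.63, 9.66, 8.75 and 9.87 without overlap (-3.12 ± 0.86, adjusted p = 0.00972). Its call was lost without the 3 libraries, where the difference was -2.93 and the adjusted p 0.0731.

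**Figure D2:**
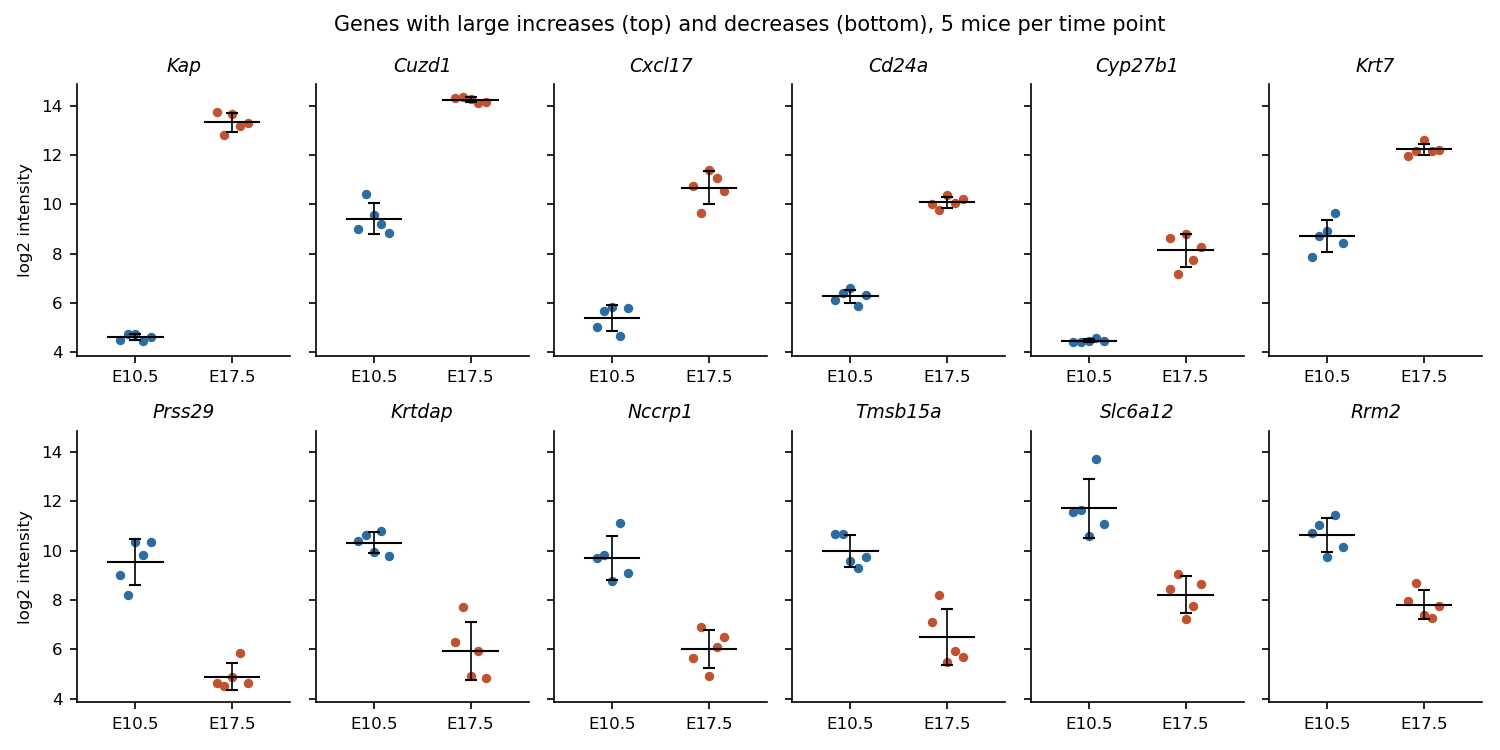
Log2 intensity of 12 genes in each of the 5 mice at E10.5 (blue) and at E17.5 (red), with lines at the mean ± SD. The upper 6 genes rose and the lower 6 fell, and in each of the 12 the values of the 2 days do not overlap.

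Genes of cell division fell nearly as a whole. Of 38 measured mitosis genes 36 were called lower and 0 higher, with a median difference of -1.43, against 9.35 percent called lower and a median of -0.01 over all genes. Birc5, which encodes survivin of the chromosomal passenger complex, went from 9.31, 8.89, 9.29, 8.81 and 9.27 to 5.60, 6.33, 7.00, 6.39 and 7.10 and fell by 2.63 ± 0.25 (6.19-fold, adjusted p = 6.79e-09). The mitotic kinase gene Plk1 gave 9.75, 9.73, 9.92, 9.60 and 9.86 at E10.5 and 7.73, 7.30, 7.97, 7.50 and 8.14 at E17.5 (-2.04 ± 0.21, adjusted p = 3.60e-08). Neither gene had overlapping groups, and the E10.5 mice were closer to each other than the E17.5 mice. Cenpa, the gene of the histone variant that marks centromeres, stood at 11.32 to 11.80 and then at 9.75 to 10.30 and fell by 1.54 ± 0.18 (adjusted p = 2.25e-07). Cks2, whose product binds cyclin-dependent kinases, fell by 1.13 ± 0.13 (adjusted p = 2.46e-07). Kif22, a kinesin gene named for its promoter below and chosen after its values were seen, went from 9.32, 9.16, 9.61, 9.23 and 9.43 to 7.18, 6.97, 7.79, 7.26 and 7.76 (-1.96 ± 0.23, adjusted p = 4.05e-07). The mean of the 38 genes separated the days, as the plot of list means by mouse shows. Without the 3 libraries 33 of the 38 genes were called lower.

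The promoters of mitosis genes are known to carry the CHR element, letters TTTGAA, through which a repressor complex acts in resting cells, often with CCAAT boxes. It was searched on both strands of the RefSeq promoters (GRCm38.p6, 250 bases before to 50 after the start) of the 30 mitosis genes that matched by symbol, and 24 of them, 80 percent, held it, against 15.8 percent of the promoters of 10789 tested genes. Among 28 DNA replication genes 4 promoters held it (14.3 percent). Of the genes called lower 19.1 percent and of those called higher 13.8 percent held it. Such a match describes letters only, and whether a factor binds there was not measured. The promoters of Plk1, Cenpa and Kif22 are shown because these are the mitosis genes with the smallest adjusted p that hold the element, which stands in capitals, as TTTGAA or, on the opposite strand, as TTCAAA.
Plk1 (chr7:122159185-122159484, plus strand): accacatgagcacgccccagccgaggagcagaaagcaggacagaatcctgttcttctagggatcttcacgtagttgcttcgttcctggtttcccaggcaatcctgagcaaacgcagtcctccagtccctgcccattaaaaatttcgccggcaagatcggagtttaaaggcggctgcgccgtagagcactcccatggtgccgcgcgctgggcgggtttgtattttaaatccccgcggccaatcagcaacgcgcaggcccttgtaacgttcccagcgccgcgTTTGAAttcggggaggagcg
Cenpa (chr5:30666636-30666935, plus strand): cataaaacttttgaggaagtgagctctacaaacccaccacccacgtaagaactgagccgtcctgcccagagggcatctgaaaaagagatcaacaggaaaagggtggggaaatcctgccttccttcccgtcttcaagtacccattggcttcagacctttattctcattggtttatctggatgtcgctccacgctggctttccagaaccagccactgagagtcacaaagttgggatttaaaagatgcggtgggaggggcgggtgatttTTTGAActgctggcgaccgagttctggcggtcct
Kif22 (chr7:127042371-127042670, minus strand): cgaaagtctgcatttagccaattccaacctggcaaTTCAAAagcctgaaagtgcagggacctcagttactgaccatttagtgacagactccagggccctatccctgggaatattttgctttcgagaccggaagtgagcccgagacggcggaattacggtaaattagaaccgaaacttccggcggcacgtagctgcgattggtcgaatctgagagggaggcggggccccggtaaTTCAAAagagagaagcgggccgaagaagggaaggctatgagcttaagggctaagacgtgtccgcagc

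DNA replication genes fell beside the mitosis genes. Of 32 measured 29 were called lower and 0 higher, with a median difference of -1.16. Rrm2, which encodes the regulated subunit of the reductase that makes deoxyribonucleotides, gave 10.71, 11.06, 9.75, 11.46 and 10.17 at E10.5 and 7.97, 8.70, 7.38, 7.26 and 7.77 at E17.5. It fell by 2.81 ± 0.42, the largest decrease of the list, or 7.04-fold (adjusted p = 1.10e-05). Cdt1, a gene of the loading of replication origins, stood at 9.15 to 9.42 and then at 7.60 to 8.00 and fell by 1.45 ± 0.17 (adjusted p = 2.81e-07). Mcm10 fell by 2.06 ± 0.25 (adjusted p = 7.27e-07) and Mcm5, of the replicative helicase, fell by 1.86 ± 0.23 (adjusted p = 8.06e-07). The E2F site TTTGGCGC was found in 5 of 28 of these promoters (17.9 percent), against 0.862 percent of those of all tested genes, on either strand. Leaving out the 3 libraries left 28 genes called lower.

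**Figure D3:**
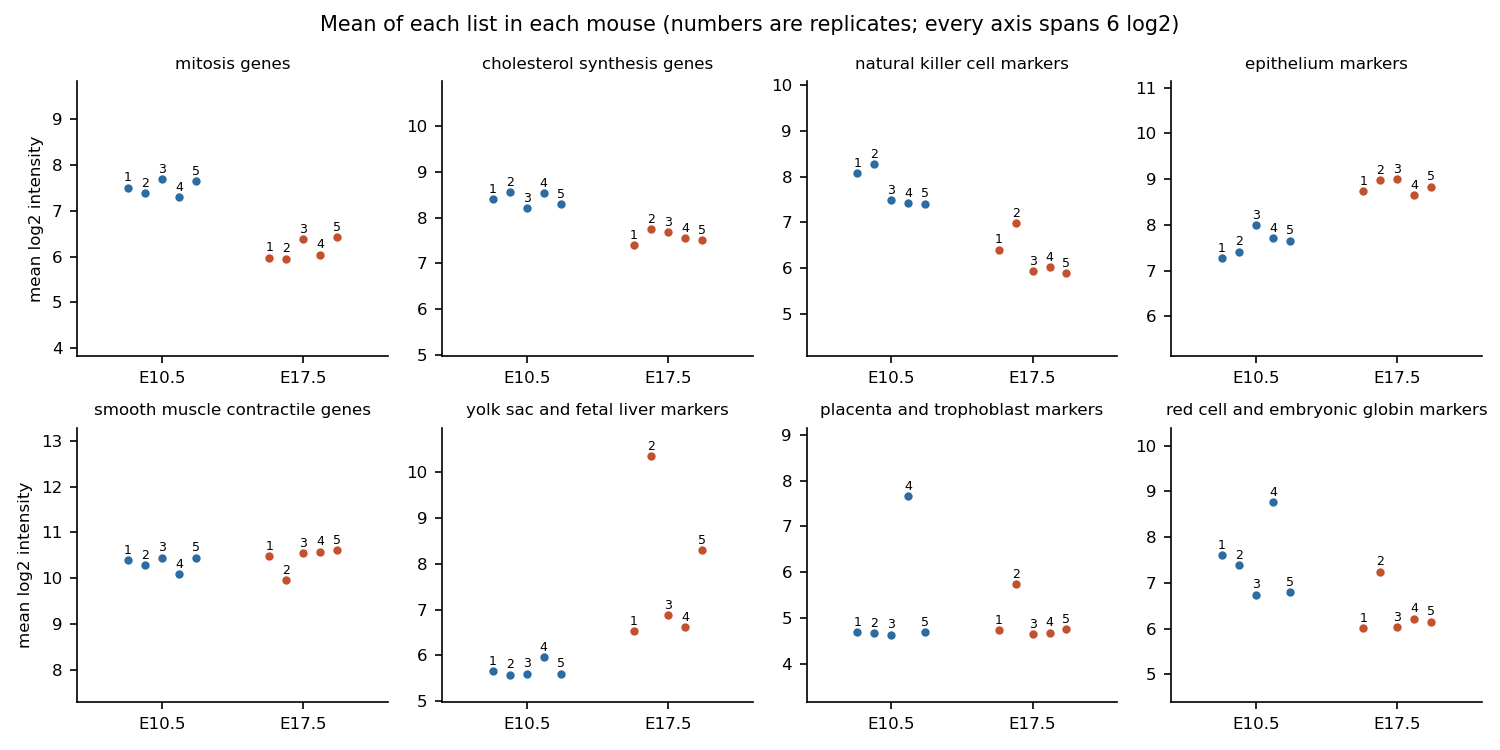
Mean log2 intensity of the measured members of 8 gene lists in each mouse at E10.5 (blue) and E17.5 (red), each axis spanning 6 log2 and the numbers giving the replicate. The days separate for mitosis, cholesterol synthesis, natural killer cell, epithelium and yolk sac lists, and smooth muscle genes overlap. The highest values were 10.36 for yolk sac genes (E17.5 replicate 2), 7.67 for placenta genes and 8.77 for red cell genes (both E10.5 replicate 4). For red cell genes E17.5 replicate 2, at 7.25, stands above the other mice of its day.

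Many genes of the ribosome fell by small amounts. Of 35 cytosolic ribosomal protein genes 20 were called lower and 0 higher, with a median difference of -0.39, or 13 lower under median scaling of the arrays (median -0.31). Rpl13a, of the large subunit, went from 11.13, 11.10, 11.22, 10.97 and 11.21 to 10.18, 10.21, 10.35, 9.98 and 10.04, groups that lay well apart though the fold was only 1.96 (-0.97 ± 0.14, adjusted p = 6.30e-06). Rpl35 fell by 0.67 ± 0.10 and Rpl12 fell by 0.66 ± 0.10 (adjusted p = 9.51e-06 and 2.11e-05). Of 28 nucleolar genes of ribosome assembly 15 were called lower and 0 higher (median -0.67). Nhp2, a component of the particles that modify ribosomal RNA, gave 10.35, 10.52, 10.44, 10.40 and 10.56 and then 9.63, 9.71, 9.76, 9.86 and 9.80 (-0.71 ± 0.10, adjusted p = 6.66e-06), and Gnl3, which encodes nucleostemin, fell by 0.80 ± 0.13 (adjusted p = 5.59e-05). Myc, the gene of a transcription factor that drives ribosome production, was detected in all E10.5 mice and in no E17.5 mouse, at least 1.46-fold lower (adjusted p = 0.0143). For subunits of oxidative phosphorylation 8 of 42 were called lower and 0 higher, but 2 were without the 3 libraries, 4 without E10.5 replicate 3 or E17.5 replicate 2 alone, and 1 under median scaling. Their called share, 19 percent, was near the 18.3 percent of all genes, of which 9.35 percent were called lower.

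Cholesterol synthesis genes were lower at E17.5. Of 18 measured 13 were called lower and 0 higher, with a median difference of -0.96. Cyp51, the gene of lanosterol demethylase, gave 9.01, 9.03, 8.34, 9.07 and 8.86 at E10.5 and 6.93, 7.35, 7.28, 7.36 and 7.03 at E17.5 (-1.67 ± 0.22, adjusted p = 2.22e-06). Dhcr7, of the last step of the pathway, went from 7.62, 7.78, 7.18, 7.41 and 7.40 to 6.11, 5.87, 6.23, 6.29 and 6.01 (-1.38 ± 0.17, adjusted p = 1.17e-06). In both genes every E17.5 mouse lay below every E10.5 mouse. Hmgcs1, whose enzyme forms the precursor of mevalonate, fell by 1.14 ± 0.17 and Lss, which closes the sterol rings, fell by 1.22 ± 0.19 (adjusted p = 1.40e-05 and 2.46e-05). Without the 3 libraries 10 genes were called lower.

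The transcription factor SREBP2 drives this pathway with the help of NF-Y, which binds CCAAT boxes. The letters CCAAT, on either strand, were present in 15 of 15 promoters of the list that matched, against 42.6 percent of the promoters of all tested genes and 73.3 percent of the mitosis promoters. The letters TCACNCCAC of a sterol regulatory element were found in 1 of 15, against 1.52 percent, and other spellings of the element were not searched. The promoters of the 3 genes with the smallest adjusted p are shown, with CCAAT or its reverse complement ATTGG in capitals.
Dhcr7 (chr7:143829964-143830263, plus strand): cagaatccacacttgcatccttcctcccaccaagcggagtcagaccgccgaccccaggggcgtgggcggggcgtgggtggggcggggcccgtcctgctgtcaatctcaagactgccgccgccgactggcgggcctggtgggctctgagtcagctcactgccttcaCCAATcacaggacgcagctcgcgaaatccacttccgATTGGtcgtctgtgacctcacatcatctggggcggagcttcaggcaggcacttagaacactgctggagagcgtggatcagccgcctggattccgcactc
Cyp51 (chr5:4104648-4104947, minus strand): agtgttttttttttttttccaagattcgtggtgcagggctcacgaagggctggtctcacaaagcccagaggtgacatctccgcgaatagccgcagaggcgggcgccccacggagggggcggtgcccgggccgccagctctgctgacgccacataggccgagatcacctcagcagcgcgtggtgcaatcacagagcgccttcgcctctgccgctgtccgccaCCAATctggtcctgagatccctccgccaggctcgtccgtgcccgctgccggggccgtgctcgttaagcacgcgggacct
Hmgcs1 (chr13:119690101-119690400, plus strand): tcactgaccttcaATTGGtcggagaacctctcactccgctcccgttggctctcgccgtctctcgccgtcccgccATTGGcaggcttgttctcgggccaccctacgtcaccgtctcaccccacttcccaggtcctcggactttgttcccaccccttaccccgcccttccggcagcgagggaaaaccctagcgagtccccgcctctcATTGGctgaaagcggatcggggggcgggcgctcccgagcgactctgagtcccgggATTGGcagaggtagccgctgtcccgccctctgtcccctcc

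Some genes of lipid uptake and transport rose. Of the lipid handling list and of the adipocyte markers below 33.3 percent each were called, against 18.3 percent of all genes. Of 33 genes of fatty acid and lipid handling 9 were called higher and 2 lower, or 7 and 1 without the 3 libraries and 9 and 0 without E10.5 replicate 4 alone, and 1 was lower without any other mouse except E10.5 replicates 1 and 2. The mean of the list stood apart in 2 libraries, at 7.56 in E10.5 replicate 4 and at 8.03 in E17.5 replicate 2. Lpl, the gene of lipoprotein lipase, rose from 10.29, 9.76, 9.89, 9.70 and 10.26 to 12.15, 12.87, 11.68, 11.81 and 11.66, a 4.16-fold change (2.06 ± 0.25, adjusted p = 4.51e-07). Pltp, which encodes phospholipid transfer protein, stood at 9.28 to 9.48 at E10.5 and at 11.00 to 12.07 at E17.5 (2.01 ± 0.26, adjusted p = 1.45e-06). The scavenger receptor gene Cd36 rose by 1.25 ± 0.18 (adjusted p = 6.80e-06) and Apoe, of the apolipoprotein of remnant particles, by 1.25 ± 0.20 (adjusted p = 3.76e-05). In none of the 4 genes did the days overlap. Lpl and Cd36 also belong to other lists used here, of adipocytes and of the clearance of dying cells. Of 9 measured adipocyte markers 3 were called higher and 0 lower, among them Cidea, of lipid droplets, which rose by 2.17 ± 0.23 (adjusted p = 4.99e-08).

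Markers of natural killer cells fell. Of 25 measured 19 were called lower and 0 higher, with a median difference of -1.49, the lowest among the lists. Their mean per mouse was 7.41 to 8.27 at E10.5 and 5.89 to 6.98 at E17.5, with E17.5 replicate 2 the highest of its day. Nkg7, of the granules of killer cells, gave 10.17, 10.23, 9.12, 9.38 and 9.48 at E10.5 and 6.06, 6.74, 5.70, 5.59 and 5.74 at E17.5 (13.1-fold lower, -3.71 ± 0.39, adjusted p = 4.96e-08). Klrg1, an inhibitory receptor gene, went from 10.54, 10.90, 9.49, 9.89 and 9.75 to 7.08, 8.76, 6.37, 6.71 and 6.00 (-3.13 ± 0.46, adjusted p = 8.55e-06). Perforin, encoded by Prf1, fell by 3.05 ± 0.46 (adjusted p = 1.48e-05) and granzyme B, encoded by Gzmb, fell by 2.10 ± 0.29 (adjusted p = 4.62e-06), the latter being detected in 1 E17.5 mouse. Sh2d2a, the gene of a T cell and killer cell adaptor, fell by 2.99 ± 0.50 and Ctsg, of the granule protease cathepsin G and listed here among neutrophil genes, fell by 2.92 ± 0.43 (adjusted p = 5.11e-05 and 8.61e-06). With the 3 libraries left out 19 members were called lower. As a measure of remaining decidua, the mean of 13 decidua markers was 9.92 in E10.5 replicate 4, 9.02 to 9.17 in the other E10.5 mice and 9.24 to 9.51 at E17.5, so that every E17.5 mouse lay above every E10.5 mouse but replicate 4. The 13 genes did not move together, as 6 had a positive difference, the median difference was -0.04 and Mmp11 rose by 3.25. Aoc1, planned for this list under its older name Abp1, was not matched and is not among the 13, and its difference was -3.12. The mean of the 13 is therefore a weak measure of the decidua left. Of these markers 3 were called higher and 2 lower, but 1 higher without E10.5 replicate 1, 2, 3 or 5 or E17.5 replicate 2, 4 or 5. Those called lower were 0 without E10.5 replicate 1 or E17.5 replicate 3 or 5 and 1 without any other mouse except E10.5 replicate 3. The part of the decidua in the natural killer cell values was not tested.

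Il15, the cytokine on which natural killer cells depend, fell with them. Its values were 7.48, 7.29, 6.44, 6.39 and 7.08 at E10.5 and 5.23, 5.50, 5.80, 5.76 and 5.35 at E17.5, without overlap (-1.41 ± 0.19, adjusted p = 2.93e-06). Il15ra, which presents the cytokine and was chosen after its values were seen, went from 7.50, 7.59, 6.79, 6.55 and 7.56 to 5.97, 5.36, 6.02, 5.90 and 5.55 (-1.44 ± 0.27, adjusted p = 1.99e-04). Of 19 T cell markers 9 were called lower and 0 higher, or 6 and 0 without the 3 libraries, and 5 of the 10 that were not called had a positive difference. The called share of this list was 47.4 percent, against 18.3 percent of all genes. Cd6, of the T cell surface, fell from 6.98, 7.37, 7.26, 7.46 and 7.22 to 4.49, 4.47, 5.24, 5.01 and 5.54 (-2.31 ± 0.28, adjusted p = 6.90e-07). Zap70, a kinase gene of T cell and killer cell receptors, fell by 2.26 ± 0.27 (adjusted p = 5.78e-07) and Cd3d, of the T cell receptor complex, fell by 1.71 ± 0.22 (adjusted p = 1.59e-06). Cd3e, of the same complex, stood at 6.40 to 7.44 at E10.5 and at 6.22 to 7.53 at E17.5 (adjusted p = 0.988), and the costimulatory receptor gene Cd28 differed by 0.10 ± 0.27 (adjusted p = 0.87), both genes being chosen after their values were seen.

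Interferon response genes were lower in part. Of 32 measured 9 were called lower and 0 higher (28.1 percent, against 18.3 percent of all genes). Cxcl9, a chemokine gene induced by interferon gamma, gave 6.60, 6.38, 6.74, 5.83 and 6.09 at E10.5 and 4.80, 4.87, 4.41, 4.91 and 5.07 at E17.5, where 1 array detected it (-1.52 ± 0.21, adjusted p = 4.72e-06). Isg15, of a ubiquitin-like modifier, fell by 1.47 ± 0.26 and the transcription factor gene Irf8 fell by 1.73 ± 0.34 (adjusted p = 1.23e-04 and 4.17e-04). Chemokines were divided, with 6 of 35 chemokine and receptor genes called higher and 5 lower (31.4 percent called). Ccl12, which attracts monocytes, fell by 1.96 ± 0.29 and Cxcl14 fell by 2.59 ± 0.42 (adjusted p = 1.24e-05 and 3.36e-05), while Ccl21a, of lymphatic vessels, rose by 1.22 ± 0.23 (adjusted p = 3.08e-04). The interleukin 1 family was likewise divided. Il1a rose from 5.05, 6.07, 6.30, 5.06 and 6.33 to 7.88, 7.22, 7.30, 6.90 and 7.39 (1.58 ± 0.28, adjusted p = 1.40e-04), whereas Il1rn, the gene of its receptor antagonist, fell by 1.42 ± 0.23 (adjusted p = 3.74e-05).

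Part of the mast cell and B cell genes rose. Called shares were 50 percent of the mast cell and eosinophil list and 37.5 percent of the B cell list, against 18.3 percent of all genes. Of 12 measured mast cell and eosinophil markers 6 were called higher and 0 lower, all of mast cells. Tpsb2, a mast cell tryptase gene, gave 7.12, 6.63, 7.94, 6.83 and 7.59 at E10.5 and 8.68, 8.07, 9.25, 9.84 and 9.27 at E17.5, so that the lowest E17.5 mouse was just above the highest E10.5 mouse (1.80 ± 0.27, adjusted p = 1.51e-05). Tpsab1, of the second tryptase, rose by 1.61 ± 0.27 and Cma1, of mast cell chymase, by 1.24 ± 0.26 (adjusted p = 4.33e-05 and 8.65e-04), the groups of Cma1 overlapping. Of 8 B cell and plasma cell markers 3 were called higher and 0 lower. Fcmr, the gene of the IgM Fc receptor, was detected in no E10.5 mouse and gave 6.39, 5.95, 6.77, 6.57 and 6.44 at E17.5, at least 2.63-fold more (adjusted p = 8.78e-11). Jchain, of the chain that joins secreted IgM and IgA, was at least 1.68-fold higher (adjusted p = 2.15e-04), and Cd79b rose by 1.37 ± 0.25 (adjusted p = 1.37e-04).

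For macrophage, complement and clearance genes the counts depended on single mice. Their called shares were 24, 44.4 and 22.9 percent, against 18.3 percent of all genes. Of 25 macrophage and dendritic cell markers 5 were called higher and 1 lower, but only 2 or 3 were called higher without E10.5 replicate 1, 2, 4 or 5 or E17.5 replicate 3, 4 or 5. Tyrobp, an adaptor gene shared by macrophages and killer cells, was the one that fell (-1.23 ± 0.21, adjusted p = 6.92e-05). Of 18 complement genes 8 were called higher and 0 lower, or 3 higher without the 3 libraries and 5 without E10.5 replicate 1, 2 or 4 or E17.5 replicate 3, 4 or 5. Clu, which encodes clusterin, an inhibitor of complement lysis, rose from 10.18, 10.07, 10.94, 10.45 and 10.98 to 12.38, 11.88, 13.11, 12.51 and 12.72 (1.99 ± 0.30, adjusted p = 1.12e-05). Cfi, of complement factor I, rose by 2.97 ± 0.54 to 8.80, 10.48, 9.13, 8.64 and 9.08 (adjusted p = 1.63e-04), replicate 2 being the highest, and the difference was 2.44 without the 3 libraries (adjusted p = 0.0104). Of 35 apoptosis and clearance genes 8 were called higher and 0 lower, or 5 and 0 without the 3 libraries. Mfge8, which bridges dying cells to phagocytes, rose by 0.83 ± 0.12 and Gas6, the ligand of the Axl family receptors, by 0.75 ± 0.15 (adjusted p = 6.18e-06 and 5.94e-04).

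Epithelial genes rose together. Of 26 measured epithelium markers 16 were called higher and 1 lower, with a median difference of 1.13. Their mean per mouse was 7.27 to 7.99 at E10.5 and 8.65 to 9.00 at E17.5. The keratin gene Krt7 gave 7.86, 8.71, 8.90, 9.63 and 8.42 at E10.5 and 11.98, 12.17, 12.59, 12.17 and 12.20 at E17.5, an 11.5-fold increase (3.52 ± 0.49, adjusted p = 3.97e-06). Tmprss2, a surface protease gene, went from 7.32, 7.70, 8.43, 7.42 and 8.24 to 10.64, 10.75, 10.74, 10.54 and 10.58 and its E17.5 mice were nearly equal (2.83 ± 0.39, adjusted p = 3.97e-06). Krt19 rose by 2.79 ± 0.41 (adjusted p = 8.87e-06) and the epithelial transcription factor gene Elf3 by 2.31 ± 0.56 (adjusted p = 0.00349). The exception was Klf5, another transcription factor of epithelium, which also is expressed in other cells and fell by 1.03 ± 0.16 (adjusted p = 1.58e-05).

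Genes of cell junctions and mucins followed. Of 29 measured 17 were called higher and 1 lower, with a median difference of 0.80, and 12 and 1 without the 3 libraries. Muc1, a mucin of the apical surface, rose from 5.57, 5.57, 6.29, 6.35 and 5.72 to 8.39, 8.14, 9.32, 9.03 and 8.85 (2.85 ± 0.47, adjusted p = 4.10e-05). Muc4 was detected in no E10.5 mouse and in all E17.5 mice, at least 3.28-fold higher (adjusted p = 8.43e-05). The tight junction genes Marveld3 and Tjp3 rose by 1.98 ± 0.30 and 1.82 ± 0.30 (adjusted p = 1.78e-05 and 3.79e-05).

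Of 33 epidermal differentiation genes 5 were called higher and 2 lower, Krtdap being among the latter. This share, 21.2 percent, was near the 18.3 percent of all genes, and only 3 were called higher without the 3 libraries, and without E10.5 replicate 1, 2, 3 or 5 or E17.5 replicate 2 or 4 alone. Calml3, of a calmodulin-like protein of stratified epithelium, gave 5.61, 4.67, 4.96, 4.52 and 4.96 at E10.5, with 1 detected array, and 8.71, 8.40, 8.98, 7.13 and 8.37 at E17.5 (3.37 ± 0.24, adjusted p = 3.13e-11). Sprr2f, a gene of small proline-rich proteins, rose from 8.98, 9.80, 10.30, 7.73 and 8.31 to 13.08, 12.44, 13.08, 12.29 and 12.94 (3.75 ± 0.72, adjusted p = 3.08e-04) and Sprr2g by 2.57 ± 0.57 (adjusted p = 0.00132). Probes of this family of similar genes may share signal. Among 36 secreted and antimicrobial genes 9 were called higher, with Kap, Cuzd1, Cxcl17, Wfdc18, Ltf and Muc1 among them, and 3 lower, with Prss29 among them. The called share of these 36 was 33.3 percent.

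Genes of the yolk sac and fetal liver were high at E17.5, most of all in 2 libraries. Of 21 measured 12 were called higher and 0 lower, with a median difference of 1.56, but without the 3 libraries 8 were higher, 1 was lower and the median was 0.33. Apoa1, which encodes the main protein of high-density lipoprotein, gave 4.78, 4.36, 4.60, 6.68 and 4.60 at E10.5, where replicate 4 alone was detected, and 8.75, 14.35, 10.10, 9.16 and 13.07 at E17.5. Afp, of alpha-fetoprotein, gave 4.57, 4.95, 4.51, 5.71 and 4.59 and 8.20, 13.80, 8.22, 7.78 and 11.61. In both genes the highest E17.5 values were in replicates 2 and 5, and yet the other 3 E17.5 mice stood above every E10.5 mouse. The differences were 6.08 ± 0.68 and 5.05 ± 0.66 (adjusted p = 1.49e-07 and 1.72e-06), 5.26 and 4.08 without E17.5 replicate 2, and 4.75 and 3.41 without the 3 libraries (adjusted p = 2.48e-09 and 1.36e-10). Apoa4, detected in no E10.5 mouse, was at 6.24, 13.48, 7.36, 6.75 and 10.66 at E17.5, and Ttr, of the thyroxine and retinol carrier transthyretin, at 6.56, 13.69, 8.34, 7.00 and 11.05. Apoa4 was at least 14.6-fold higher (adjusted p = 5.48e-05), but at least 23.2-fold without E17.5 replicate 1, 6.60-fold without E17.5 replicate 2 and 3.31-fold without the 3 libraries (adjusted p = 3.15e-10). Ttr rose by 4.32 ± 0.85 (adjusted p = 3.79e-04), or by 5.01 without E17.5 replicate 1, 3.22 without E17.5 replicate 2 and 2.62 without the 3 libraries (adjusted p = 0.00272). Spp2, of a secreted phosphoprotein of liver and bone, was at 5.96, 12.70, 7.31, 6.33 and 9.71 at E17.5 and rose by 3.49 ± 0.69 (adjusted p = 3.94e-04), or by 4.10, 2.42 and 1.82 with the same libraries left out. The part of fetal tissue RNA in these values was not tested.

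Serpina1b, an alpha-1-antitrypsin gene of the same list, ordered the E17.5 mice differently. It gave 6.67, 6.88, 6.84, 6.71 and 6.95 at E10.5 and 9.63, 10.94, 10.13, 10.57 and 9.46 at E17.5, where replicates 2 and 4 were highest and replicate 5 lowest (3.34 ± 0.28, adjusted p = 5.05e-10), and the difference was 3.28 without the 3 libraries. Mouse alpha-1-antitrypsin genes are near-identical copies, so their probes may share signal. The part of fetal tissue RNA in the Serpina1b values was not tested either. Of 31 placenta and trophoblast genes 0 were called in either direction by limma, and 0 had an unadjusted p of at most 0.05.

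Embryonic globins fell. Hbb-bh1, a beta-like globin gene of primitive red cells, gave 8.45, 7.01, 6.02, 11.06 and 7.13 at E10.5, with replicate 4 highest, and was detected in no E17.5 mouse, at least 7.68-fold lower (adjusted p = 9.45e-05), or at least 4.47-fold without that mouse. Hba-x, of the zeta chain, fell by 2.52 ± 0.56 (adjusted p = 0.00149), and the difference was -1.68 without E10.5 replicate 4 and -1.78 without the 3 libraries. Hbb-y, of the embryonic epsilon-y chain, fell by 3.92 ± 0.72 (adjusted p = 1.85e-04), and the difference was -3.09 without E10.5 replicate 4 and -4.57 without E10.5 replicate 3. These were the 3 of 10 red cell markers called (30 percent, against 18.3 percent of all genes), all lower, and the same count was reached without the 3 libraries. The part of embryo RNA in these values was not tested.

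Among genes of the matrix, several proteases rose (38.7 percent of their list called, against 18.3 percent of all genes) and some collagens fell. Of 31 matrix proteases and inhibitors 11 were called higher and 1 lower. Mmp11, of stromelysin 3, gave 5.67, 5.79, 6.15, 6.34 and 6.47 at E10.5 and 9.85, 10.06, 8.84, 9.24 and 8.67 at E17.5, a 9.51-fold increase (3.25 ± 0.27, adjusted p = 7.27e-10). Mmp9, of a gelatinase, rose by 1.06 ± 0.20 and the lysosomal protease gene Ctsh by 1.23 ± 0.19 (adjusted p = 2.05e-04 and 1.66e-05). The inhibitor genes parted, as Timp2 rose by 0.74 ± 0.11 (adjusted p = 8.61e-06) and Timp1 fell by 1.01 ± 0.18 (adjusted p = 1.48e-04). Of 24 collagen genes 5 were called lower and 0 higher, with a median difference of -0.19. Their called share, 20.8 percent, was near the 18.3 percent of all genes, of which 9.35 percent were called lower. Col15a1, a collagen of basement membranes, went from 10.98, 10.91, 10.89, 10.41 and 11.20 to 8.58, 8.73, 9.00, 9.84 and 10.02 (-1.65 ± 0.26, adjusted p = 2.74e-05). Col11a1 fell by 1.00 ± 0.20 and Col5a2 fell by 0.98 ± 0.27 (adjusted p = 5.27e-04 and 0.0084). Serpinh1, of the collagen chaperone HSP47, fell by 0.85 ± 0.19 (adjusted p = 0.00128).

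Genes of smooth muscle contraction were not called more often than all genes. Of 24 measured 2 were called higher and 1 lower, where 18.3 percent of all genes were called, and the median difference was 0.04. Groups without overlap were found in 0 genes of the list, against 14.2 percent of all genes. Myh11, the smooth muscle myosin heavy chain, stood at 12.74 to 13.60 at E10.5 and 12.91 to 13.79 at E17.5 (difference 0.35 ± 0.17, adjusted p = 0.178). It was called under cyclic loess (0.43, adjusted p = 0.0362) and without E17.5 replicate 2 (0.49, adjusted p = 0.0417), in which the mean of the list was the lowest of its day at 9.95. The one called lower was Srf, of a transcription factor of muscle genes (-0.47 ± 0.16, adjusted p = 0.037), whose difference was 0.0063 with another probe of the gene. Lmod1, of an actin-nucleating protein of smooth muscle, rose by 0.84 ± 0.20 (adjusted p = 0.00237) and Tagln by 0.66 ± 0.19 (adjusted p = 0.013, lost without E17.5 replicate 4). Of 38 channel genes 8 were called higher and 2 lower (26.3 percent, against 18.3 percent of all genes, with a median difference of 0.05), or 5 higher without E17.5 replicate 4 or 5, and 6 and 0 without the 3 libraries. Kcnj8, which forms the pore of ATP-sensitive potassium channels, rose from 7.92, 7.82, 7.75, 7.47 and 7.84 to 9.04, 8.19, 9.09, 9.51 and 9.30 (1.27 ± 0.22, adjusted p = 6.36e-05). Abcc9, of the regulatory subunit of the same channel, rose by 0.87 ± 0.16 (adjusted p = 1.29e-04) and Trpv4, of a calcium-permeable channel, by 1.21 ± 0.19 (adjusted p = 2.15e-05).

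Uterotonin and prostaglandin genes were called about as often as all genes (15.4 and 16.7 percent, against 18.3 percent). Steroid receptor and metabolism genes were called more often (29.6 percent). The progesterone receptor gene Pgr stood at 7.10, 6.95, 6.87, 7.40 and 7.43 at E10.5 and at 7.23, 6.85, 7.34, 7.33 and 7.50 at E17.5, and the oestrogen receptor gene Esr1 at means of 9.05 ± 0.57 and 9.09 ± 0.56 (SD, n = 5). Both overlapped, with differences of 0.10 ± 0.19 and 0.04 ± 0.31 (adjusted p = 0.801 and 0.963). Of 27 steroid receptor and metabolism genes 6 were called higher and 2 lower, and without the 3 libraries 3 and 2. Hsd11b1, whose enzyme regenerates active glucocorticoid, rose from 12.84, 13.01, 13.03, 12.84 and 12.86 to 14.66, 14.31, 14.34, 14.06 and 14.66 (1.49 ± 0.33, adjusted p = 0.00147), while Hsd11b2, of the inactivating enzyme, differed by 0.27 ± 0.36 (adjusted p = 0.693). Akr1c14, a hydroxysteroid dehydrogenase gene, rose by 1.54 ± 0.30 (adjusted p = 2.93e-04). Akr1c18, whose enzyme inactivates progesterone, gave 11.77, 12.12, 12.48, 11.46 and 11.79 and then 13.95, 13.62, 14.06, 13.73 and 13.77, groups that did not overlap, but its adjusted p of 0.0443 was near the threshold. The call was lost on leaving out any mouse but E10.5 replicate 3, with an adjusted p of up to 0.0877.

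Of 13 uterotonin receptor and gap junction genes 1 was called higher and 1 lower. Edn1, of endothelin 1, rose by 0.81 ± 0.14 (adjusted p = 1.18e-04). Gja1, of connexin 43, the gap junction protein of the labouring myometrium, gave 13.09, 12.76, 12.92, 13.84 and 12.76 at E10.5, with replicate 4 highest, and 12.56, 12.38, 12.38, 12.30 and 12.55 at E17.5. It fell by 0.64 ± 0.22 (adjusted p = 0.0386), and the call was lost without E10.5 replicate 1 or 4 or E17.5 replicate 2, 3, 4 or 5. Of 18 prostaglandin genes 3 were called higher and 0 lower, and 1 without E17.5 replicate 2. Of these Hpgds, of a prostaglandin D synthase of blood cells, rose most, from 5.81, 6.25, 6.74, 5.54 and 6.44 to 8.75, 7.27, 8.91, 8.09 and 7.82 (2.01 ± 0.31, adjusted p = 1.62e-05). Of 11 measured genes that the study singles out for labour 3 were called higher, Hsd11b1, Elf3 and Nupr1, and 2 lower, Gja1 and Zeb2. The called share of that list was 45.5 percent, against 18.3 percent of all genes. Part of that list, Nupr1 among it, was picked by the study from these same samples, and another part, with Hsd11b1, Elf3, Gja1 and Zeb2, from earlier work. Nupr1, of a stress-induced nuclear protein, rose by 0.84 ± 0.19 (adjusted p = 0.00208), and the call of Zeb2 (-0.49 ± 0.16, adjusted p = 0.0324) was lost without the 3 libraries and without 6 of the 10 mice singly. Zeb1 differed by 0.10 ± 0.17 (adjusted p = 0.781). The genes Oxtr, Ptgs1, Ptgs2 and Ptgfr were not analysed here, as no kept probe carried these symbols in the annotation used. The paper does report Ptgs1 from these arrays, in a cluster that it describes as rising from mid to late pregnancy.

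Among vitamin D and retinoid genes, the enzyme that activates vitamin D and its receptor both rose. Cyp27b1, whose enzyme makes the active form of vitamin D, was detected in no E10.5 mouse, at 4.40, 4.41, 4.45, 4.59 and 4.46, and in all E17.5 mice, at 8.65, 7.18, 8.78, 7.75 and 8.27, at least 8.54-fold more (adjusted p = 7.15e-14). The receptor gene Vdr rose by 1.70 ± 0.35 to 8.44, 10.67, 8.22, 7.73 and 8.63 (adjusted p = 6.40e-04), with replicate 2 highest, and the difference was 0.99 without the 3 libraries (adjusted p = 0.0225). Rbp2, of a cellular retinol carrier, was at least 2.94-fold higher (adjusted p = 4.20e-05), or at least 1.80-fold without the 3 libraries. Of the 23 genes of the vitamin D and retinoid list 6 were called higher and 2 lower, or 10 higher with array weights and 5 higher and 1 lower without the 3 libraries. Its called share was 34.8 percent, against 18.3 percent of all genes.

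Of the growth factor lists, Wnt pathway genes (15 percent called) and vascular growth factor genes (21.4 percent) were near the 18.3 percent called of all genes, endothelium markers (5 percent) were below it and TGF-beta family genes (26.3 percent) above it. Igf1, the growth factor through which oestrogen acts on uterine epithelium, gave 10.95, 10.26, 10.75, 10.34 and 10.88 at E10.5 and 9.14, 8.60, 9.01, 9.67 and 9.13 at E17.5 and fell by 1.53 ± 0.18 (adjusted p = 4.92e-07). Igfbp2, of a binding protein that limits it, rose by 1.63 ± 0.37 (adjusted p = 0.0017). Of 38 genes of the TGF-beta family and its modulators 5 were called higher and 5 lower, but 3 higher without E17.5 replicate 3, 3 lower without E10.5 replicate 1, 2 or 4 or E17.5 replicate 3, and 2 lower without E17.5 replicate 4. Without the 3 libraries 3 were higher and 2 lower. Bmp3 rose from 4.76, 5.91, 5.14, 5.71 and 5.60 to 8.14, 7.42, 8.31, 7.94 and 7.98 (2.54 ± 0.28, adjusted p = 9.15e-08) and the BMP antagonist gene Nog fell by 1.31 ± 0.36 (adjusted p = 0.00975). Of 40 Wnt pathway genes 1 was called higher and 5 lower. Wnt10a stood at 8.19, 8.03, 7.54, 8.27 and 7.13 at E10.5 and at 4.79, 7.19, 4.90, 4.96 and 4.99 at E17.5, where replicate 2 overlapped with E10.5 and the others lay near the floor (-2.46 ± 0.36, adjusted p = 9.44e-06). Sfrp1, of a secreted Wnt inhibitor, fell by 1.71 ± 0.33 and the receptor gene Fzd10 by 1.65 ± 0.35 (adjusted p = 3.10e-04 and 9.31e-04), while the receptor gene Fzd7 rose by 1.06 ± 0.15 (adjusted p = 7.27e-06). Of 20 endothelium markers 1 was called lower and 0 higher, and of 28 vascular growth factor genes 2 higher and 4 lower, among the latter Notch4 (-0.59 ± 0.14, adjusted p = 0.00244) and Pdgfb (-0.61 ± 0.14, adjusted p = 0.00208).

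Smaller groups of stromal and stress genes were also scored, where 18.3 percent of all genes were called. Shares near it were 15 percent of immediate early, 19 percent of antigen presentation and 23.1 percent of unfolded protein response genes. Of stromal fibroblast markers 27.8 percent were called and of glandular kallikreins 8.33 percent. Of 18 stromal fibroblast markers 4 were called lower and 1 higher, and 2 lower without the 3 libraries. Thy1, a surface glycoprotein gene of fibroblasts and T cells, went from 12.16, 12.15, 11.31, 11.61 and 11.49 to 9.89, 10.47, 10.06, 10.47 and 10.21 (-1.52 ± 0.25, adjusted p = 4.87e-05). Of 20 immediate early genes 1 was called higher, Ier3 (1.73 ± 0.35, adjusted p = 5.53e-04), and 2 lower, Myc and Egr2. The transcription factor gene Egr2 gave 8.71, 8.35, 7.93, 8.11 and 8.47 at E10.5 and 6.43, 6.24, 7.19, 7.05 and 7.29 at E17.5 (-1.47 ± 0.27, adjusted p = 1.39e-04). Of 21 antigen presentation genes 3 were called lower and 1 higher, the former being the inducible proteasome subunits, of which Psmb10 fell by 0.84 ± 0.16 (adjusted p = 2.34e-04). Of 26 unfolded protein response genes 3 were called higher and 3 lower, and 1 higher without the 3 libraries. Serpinb11, an ovalbumin-type serpin gene, was detected in no E10.5 mouse and was at least 5.05-fold higher at E17.5 (adjusted p = 3.49e-05). Klk1b24, of a glandular kallikrein, was detected in no E17.5 mouse and was at least 3.06-fold lower (adjusted p = 0.00172), as the one call among 12 measured kallikreins.

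Transport genes of water and ions changed in both directions. Of 30 measured 7 were called higher and 4 lower (36.7 percent, against 18.3 percent of all genes). Fxyd4, of a regulator of the sodium pump, was detected in no E10.5 mouse and stood at 8.15, 6.33, 8.43, 8.63 and 8.10 at E17.5, at least 7.45-fold more (adjusted p = 2.61e-06). Slc26a4, of the anion exchanger pendrin, rose by 1.55 ± 0.28 (adjusted p = 1.37e-04). Slc5a3, of the osmolyte transporter for inositol, rose by 1.33 ± 0.20 (adjusted p = 1.59e-05), opposite to the osmolyte transporter gene Slc6a12. Of 38 other solute carriers 5 were called higher and 4 lower (23.7 percent, near the 18.3 percent of all genes). Slc22a4, of a carnitine and ergothioneine transporter, was at least 2.82-fold higher (adjusted p = 1.45e-07), and Slc7a5, of a transporter of large amino acids, fell by 0.84 ± 0.16 (adjusted p = 2.19e-04).

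The mice of the days between showed when the differences arose. Of the 454 genes that rose by over 1 log2, 83 had covered at least 50 percent of the way from the E10.5 to the E17.5 mean by E12.5, 276 more by E15.5 and the other 95 had not by E15.5, and the median share was 27.4 percent at E12.5 and 75.7 percent at E15.5. Of the 351 that fell by over 1 log2 the numbers were 129, 172 and 50, with medians of 39.6 and 81.1 percent. The means of 315 of the rising and 247 of the falling genes moved in the same direction at each of the 3 steps. Cuzd1 was early, with means of 12.96 at E12.5 and 14.32 at E15.5. Cyp27b1 was at 4.45 and 7.24 and Il24 at 5.54 and 8.04, so that both moved mainly between E12.5 and E15.5, as did Kap at 6.24 and 10.94. Clu, at 10.66 at E15.5, moved in the last step, and Prf1 and Tmsb15a, at 10.30 and 8.96 at E15.5, also covered most of the way after it. Wnt10a had dropped to 5.89 by E12.5. As these shares use the E10.5 and E17.5 means, they describe the order in time and were not tested.

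**Figure D4:**
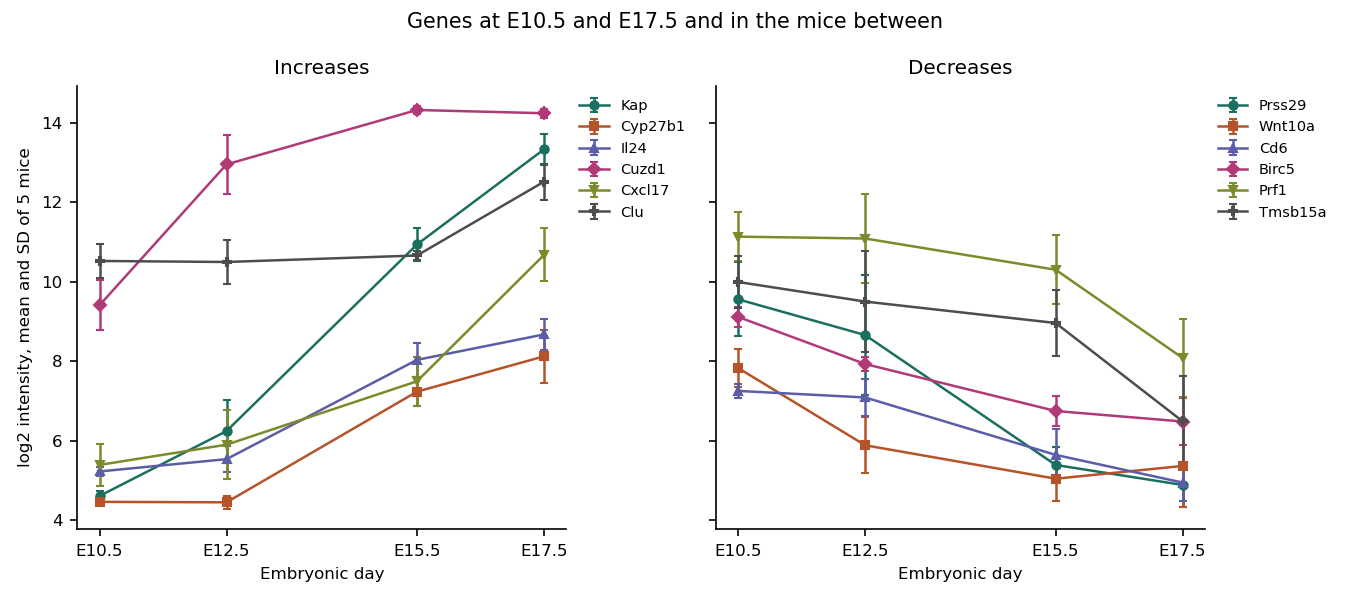
Mean log2 intensity ± SD of 5 mice of 6 genes that rose (left) and 6 that fell (right), against embryonic day. Cuzd1 and Wnt10a covered most of the way by E12.5, Kap, Cyp27b1, Il24, Prss29 and Cd6 moved most between E12.5 and E15.5, and Cxcl17, Clu, Prf1 and Tmsb15a after E15.5.

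The step from E12.5 to E15.5 shares no mouse with the comparison of E10.5 and E17.5, so it was used as a test in other animals, within the same limma fit. Of the 1207 genes called higher, 1089 (90.2 percent) were also higher at E15.5 than at E12.5, and of the 1257 called lower, 1163 (92.5 percent) were lower, while 48.6 percent of all genes were higher at E15.5. From E12.5 to E15.5 limma called 117 genes higher (0.871 percent) and 75 lower (0.558 percent). Among the genes called higher between E10.5 and E17.5, 111 were called in that step in the same direction (9.2 percent) and among those called lower 66 (5.25 percent), and 0 genes were called in opposite directions. Seen from the other side, 94.9 percent of the genes called higher and 88.0 percent of those called lower from E12.5 to E15.5 were called the same way between E10.5 and E17.5. Kap differed by 4.70 between E15.5 and E12.5 (adjusted p = 4.07e-14), Calml3 by 2.71 (adjusted p = 1.14e-08), Prss29 by -3.27 (adjusted p = 0.011) and Birc5 by -1.18 (adjusted p = 0.00916). On these days too the placenta genes stood high in some libraries. The mean of the placenta genes was 5.48 and 6.31 in E12.5 replicates 1 and 3 and 7.50 and 6.61 in E15.5 replicates 2 and 3, against 4.63 to 4.68 and 4.58 to 4.67 in the others. Without these 4 libraries the shares with the same sign were 88.1 and 91.2 percent, and 42 genes were called in both comparisons in place of 177, of 44 called in the step.

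**Figure D5:**
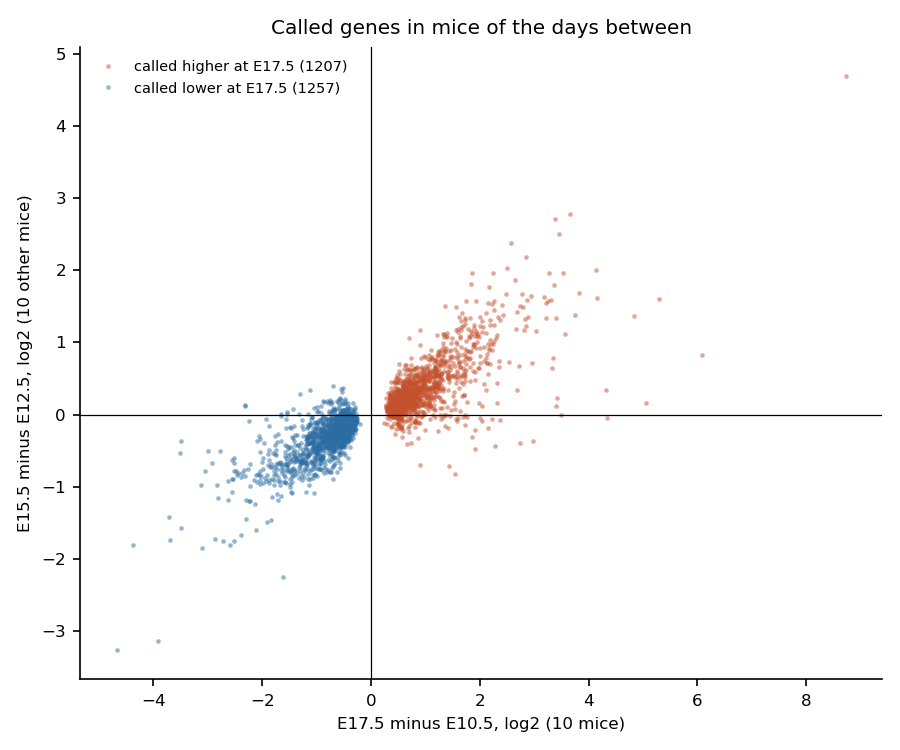
Difference between E15.5 and E12.5 (vertical axis, log2) against the difference between E17.5 and E10.5 (horizontal axis, log2) for the 1207 genes called higher (red) and the 1257 called lower (blue) between E10.5 and E17.5, with no mouse shared between the axes. Most points lie at the lower left and the upper right, 92.5 percent of the blue and 90.2 percent of the red ones.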

How the data were processed

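Uterine wall from 32 FVB/N mice, 1 per array, was hybridised as biotin-labelled cRNA to Illumina MouseRef-8 v2 bead arrays, and the 10 arrays of E10.5 and E17.5 are compared here. The deposited intensity table holds the authors' summarised, not normalised signal of 25697 probes. The deposited detection p-values give each probe's signal against negative control beads. The log2 values used are those the authors made with limma, by background correction against control beads and quantile normalisation. They hold 20169 probes, and the 5528 left out had a detection p above 0.05 on all 32 arrays. Recomputing them from the intensities with neqc gave a median absolute difference of 0.000323 log2.

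Probes were named from the platform annotation, in which 18903 had 1 symbol and 1266 none, and the probe with the highest SD over all arrays stood for each of 13439 genes. limma 3.58.1 (R 4.3.3) fitted 7 group means over all 32 arrays, with empirical Bayes variances and Benjamini-Hochberg adjustment, and the procedure was tested on simulated data. The number of arrays limits the precision. Replicates are different mice, and p-values measure the spread between them. The 52 gene lists, the comparison and the 3 libraries left out in places were chosen with earlier results of these data known. Genes named in the text are drawn from the 15 largest increases and decreases without overlap, in each list the 4 members with the lowest adjusted p, and all members of the uterotonin, prostaglandin, steroid and labour lists. Cd28, Cd3e, Il24, Il15ra and Kif22 are outside this rule and were chosen after their values were seen. Promoters are from RefSeq (GRCm38.p6), matched by symbol, and motifs were searched on both strands. Alternatives covered background correction, normalisation, filters, the probe of a gene, the arrays in the fit, variance models, the replicate number as a block, and leaving out mice.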

Additional observations from a re-analysis of the deposited data

Results flagged for a closer look

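Within each day the highest and the lowest mouse of the genes named above and of the list means were set against the others by Dixon's test at its critical value of 0.71 for 5 samples. Of 394 groups 26 stood out (6.6 percent), where chance gives about 1 in 20. The 394 include genes detected on no array of a day, which could not be flagged. The share among the groups that could be flagged was therefore higher. Most were in the libraries already set apart by placenta and yolk sac genes. E17.5 replicate 2 was the highest in 6 genes and 4 list means and the lowest in 3 genes and 1 list mean, and E10.5 replicate 4 was the highest in 2 genes and 5 list means and the lowest in 1 list mean.

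In E17.5 replicate 2 the high genes were Cfi at 10.48, Ctsh at 12.16, Fgfbp1 at 6.16, Hba-x at 5.20, Hbb-y at 6.58 and Wnt10a at 7.19. Its high list means were lipid handling at 8.03, serpins at 7.80, placenta at 5.74 and red cells at 7.25. The low ones were Fxyd4 at 6.33, Lmod1 at 8.72 and Ltf at 12.66, and the mean of smooth muscle genes at 9.95. In E10.5 replicate 4 Apoa1 was high at 6.68 and Ttr at 6.33, beside the list means of lipid handling at 7.56, serpins at 7.47, decidua at 9.92, placenta at 7.67 and yolk sac at 5.96, and the mean of nucleolar genes was low at 7.98. In other libraries Cyp51 was low at 8.34 in E10.5 replicate 3 and Ier3 at 11.32 in E10.5 replicate 1, and in E17.5 replicate 4 Prss29 was high at 5.84 and Rpl35 at 13.64.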

How the results depend on the processing

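The count of 2464 called genes ran from 2057 to 2334 with 1 mouse left out and from 1824 to 3040 over the other alternatives, with 24 alternatives in all. For genes called higher the ranges were 1007 to 1180 and 912 to 1486, and for those called lower 1050 to 1187 and 909 to 1554. Differences of over 1 log2 numbered 744 to 843 with 1 mouse left out and 339 without background correction, against 805. The count of genes called the same way from E12.5 to E15.5, 177, was 165 to 195 with 1 mouse left out, 339 with array weights and 42 without E12.5 replicates 1 and 3 and E15.5 replicates 2 and 3, an alternative chosen after seeing the data. Of the calls 49 percent were higher, 54.1 percent under cyclic loess and 57.1 percent under median scaling. The cause of these shifts was not tested. Of 3480 values of 145 named genes 3431 kept their side of the threshold and, where called, their direction, 45 lost the call and 2 gained it. Genes that were not called, such as Cd28, Cd3e and Esr1, could change sign within the 3431. Of the called genes Srf reversed, to 0.0068 without background correction and 0.0063 with the probe of the highest mean. The other genes whose call changed were Akr1c18, Aoc1, Gja1, Myh11, Tagln and Zeb2. With only the 10 arrays compared in the fit, 5 complement, 3 epidermal, 2 macrophage and 1 of the decidua genes were called higher and 4 oxidative phosphorylation genes lower (5 under cyclic loess). Epidermal genes called higher also were 3 without background correction, with array weights, with a trended robust prior and without the 4 E12.5 and E15.5 libraries. Replicate numbers do not pair the mice, since deviations of same-numbered mice correlated at 0.09, -0.02, 0.16, -0.06 and 0.17. With the number as a replicate block 2625 genes were called, 1265 higher and 1360 lower, with 811 differences of over 1 log2 and 213 genes called the same way from E12.5 to E15.5, and the call of no named gene changed. Genes near the floor of the arrays have only bounds.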
